A study of Mus musculus with 6 samples.

Results

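Haem is an iron-bearing ring that cytochromes and myoglobin need, and brown fat, rich in mitochondria, needs much of it for its respiratory chain. Cells make haem in a chain of enzymes that begins with Alas1 in mitochondria and ends there with Cpox, Ppox and Fech, which inserts the iron. Haem oxygenases open the ring and release iron, biliverdin and carbon monoxide, biliverdin reductases turn biliverdin into bilirubin, Tfrc takes transferrin-bound iron into cells and Slc40a1 lets iron out. The 10 genes described here cover these steps and were chosen by symbol. They are Hmox1, Hmox2, Blvra, Blvrb, Alas1, Cpox, Ppox, Fech, Tfrc and Slc40a1, out of 29072 genes with an identifier in the deposited table.

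Interscapular brown adipose tissue, the main brown fat depot of the mouse, was taken from UCP1(-/-) mice of the C57BL/6J strain and from wildtype C57BL/6J mice, and its total RNA was sequenced. There were 3 knockout and 3 wildtype libraries, and genotype was the difference the labels record between the groups. Ucp1 encodes the mitochondrial proton carrier through which brown fat makes heat. The labels give no age, sex, housing temperature or time of sampling, and they do not describe the knockout allele. They also do not say that each library is a separate animal, so p-values are relative to a spread between libraries that may be technical. Levels are RPKM, the reads on a transcript divided by its length in kilobases and by the reads of the library, and can therefore be set side by side between genes.

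The libraries held between 15700000 and 18000000 reads each, worked out from the steps between low values. Ucp1 was at 379 ± 8.83 RPKM in knockout tissue and 2653 ± 814 RPKM in wildtype tissue (SD, n = 3 each), so the targeted gene was lower in the knockout libraries but not at 0. Cidea and Cox8b, from the list of brown adipocyte markers, and the general fat cell genes Fabp4 and Adipoq were high in both groups. Of 11541 genes tested with limma, 808 were higher and 86 were lower in knockout tissue. With the libraries rescaled by the median of ratios the split was 492 higher and 153 lower. The total of 894 dropped to 477 without knockout replicate 1 and to 457 without knockout replicate 2.

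All 10 genes passed the filter on low values, and in knockout tissue 1 of them rose at an adjusted p under 0.05 in limma and none fell. That gene was Hmox1, the inducible haem oxygenase. Over all tested genes 7.75% passed in either direction, 7.00% higher and 0.745% lower in knockout tissue, so 1 of 10 is near the background. At an unadjusted p under 0.05 the genes were Hmox1, Alas1 and Hmox2, 3 in all, against 23.6% of all tested genes, so this count is near the background too. The log2 change was positive for 9 of the 10, as it was for 68.6% of all tested genes. Its median was 0.20 over the 10 genes and 0.08 over all tested genes. The knockout and wildtype libraries did not overlap for 1 of the 10, Hmox1, in the transcript rows used; this was so for 29.4% of all tested genes, 24.3% with the knockout libraries above and 5.14% with them below.

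**Figure D1:**
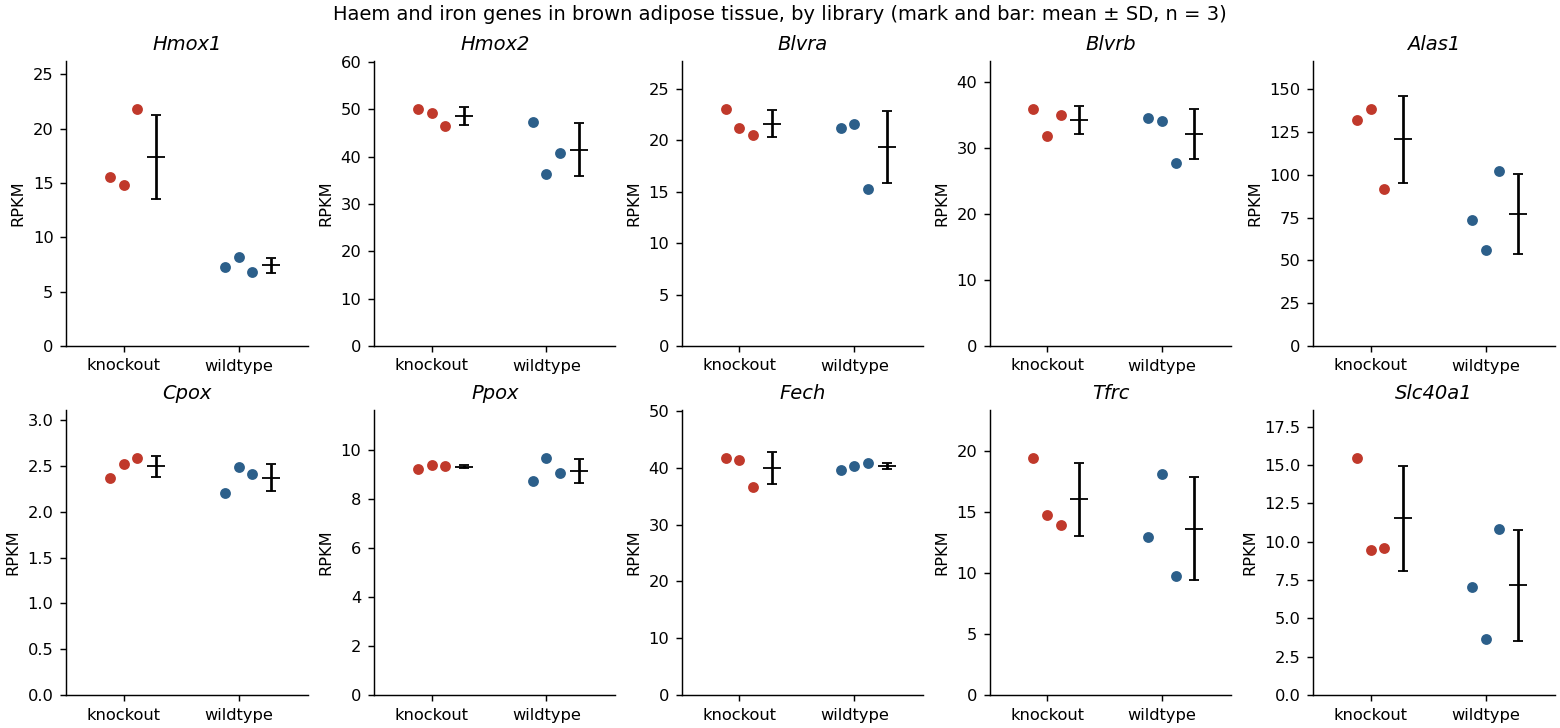
RPKM of each of the 10 genes in every library, on axes that start at 0, with knockout libraries on the left and wildtype libraries on the right of each panel and the mean ± SD (n = 3) beside the points. The groups stand clear of each other for Hmox1, at 14.8 to 21.9 RPKM in knockout, against 6.79 to 8.21 RPKM in wildtype libraries, and overlap in the other 9 panels.

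The order of the levels shows which of the 10 RNAs were most abundant in the transcript rows used. It depends on the row chosen. Another row of Blvrb averaged 63.8 RPKM in knockout and 59.9 RPKM in wildtype tissue, above the rows used for Hmox2 and Fech. Alas1 was the highest of the 10 in both groups and Cpox the lowest. In wildtype tissue Hmox2 and Fech overlapped from library to library, as did Blvra and Tfrc, and Hmox1 and Slc40a1. Hmox1 was number 6 of the 10 in knockout tissue, overlapping with Blvra, Tfrc and Slc40a1 there, and number 8 in wildtype tissue. Hmox1 thus lay above Ppox in every knockout library and below it in every wildtype library.

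Among the genes of haem breakdown, Hmox1 rose 2.35-fold in knockout tissue. It was at 15.6, 14.8 and 21.9 RPKM in the knockout libraries, against 7.22, 8.21 and 6.79 RPKM in the wildtype libraries. Every knockout library lay above every wildtype library, and knockout replicate 3 was the highest of all. Hmox1 averaged 17.4 ± 3.86 RPKM in knockout tissue and 7.41 ± 0.726 RPKM in wildtype tissue (SD, n = 3 each). The log2 change was 1.12 with a standard error of 0.14 and a 95% interval from 0.79 to 1.44, with an adjusted p of 0.00213 in limma. It passed under all 17 alternatives run, with log2 changes from 0.95 to 1.21 and adjusted p from 0.00151 to 0.0124. The bulk RNA does not tell more cells of a type from more RNA per cell, here or in the results that follow. Hmox1 lies on chromosome 8 within 10 Mb of Ucp1. Of 98 tested genes there, Hmox1 included and Ucp1 left out, 16 passed in either direction (16.3%). Of the 98, 11 passed as higher in knockout tissue (11.2%), Hmox1 among them. Over all tested genes these shares were 7.75% and 7.00%. The part of the position near Ucp1 in the Hmox1 result was not tested.

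Hmox2, the haem oxygenase that most cells make constantly, stood at 50.2, 49.3 and 46.6 RPKM in knockout libraries, against 47.4, 36.4 and 40.8 RPKM in wildtype libraries. The groups overlapped, because wildtype replicate 1 lay above knockout replicate 3. Hmox2 averaged 48.7 ± 1.89 RPKM in knockout tissue and 41.5 ± 5.53 RPKM in wildtype tissue. Its log2 change of 0.23, with a 95% interval from 0.01 to 0.46, did not pass, at an adjusted p of 0.203 in limma. It was 0.14 without wildtype replicate 2 and 0.33 without wildtype replicate 1, and passed in neither (adjusted p 0.377 and 0.0843 in limma). Hmox2 was thus the more abundant haem oxygenase in all 6 libraries.

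Within a library, the ratio of Hmox1 to Hmox2 was 0.310, 0.301 and 0.469 in knockout tissue, against 0.152, 0.226 and 0.167 in wildtype tissue. The knockout ratios were all above the wildtype ratios. They averaged 0.360 ± 0.0947 in knockout tissue and 0.182 ± 0.0388 in wildtype tissue, a difference of 0.98 on the log2 scale. The exact two-sided permutation test gave p = 0.1, the smallest that 3 against 3 libraries allow, and 0.2 after adjustment over the 2 ratios tested.

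The biliverdin reductases Blvra and Blvrb did not pass. Blvra was at 23.1, 21.2 and 20.5 RPKM in knockout libraries, against 21.2, 21.6 and 15.3 RPKM in wildtype libraries. Blvrb, which also reduces flavins, was at 35.9, 31.8 and 34.9 RPKM in knockout libraries, against 34.5, 34.0 and 27.7 RPKM in wildtype libraries. Both overlapped between the groups, and wildtype replicate 3 was the lowest library for each. The log2 change of Blvra was 0.16, with a 95% interval from -0.13 to 0.46 and an adjusted p of 0.481 in limma. For Blvrb it was 0.09, with an interval from -0.13 to 0.32 and an adjusted p of 0.612 in limma. Both intervals end below the start of the interval of Hmox1. The ratio of Blvra to Blvrb was 0.633 ± 0.0411 in knockout tissue and 0.600 ± 0.0432 in wildtype tissue (exact two-sided permutation p = 0.4, adjusted p 0.4).

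**Figure D2:**
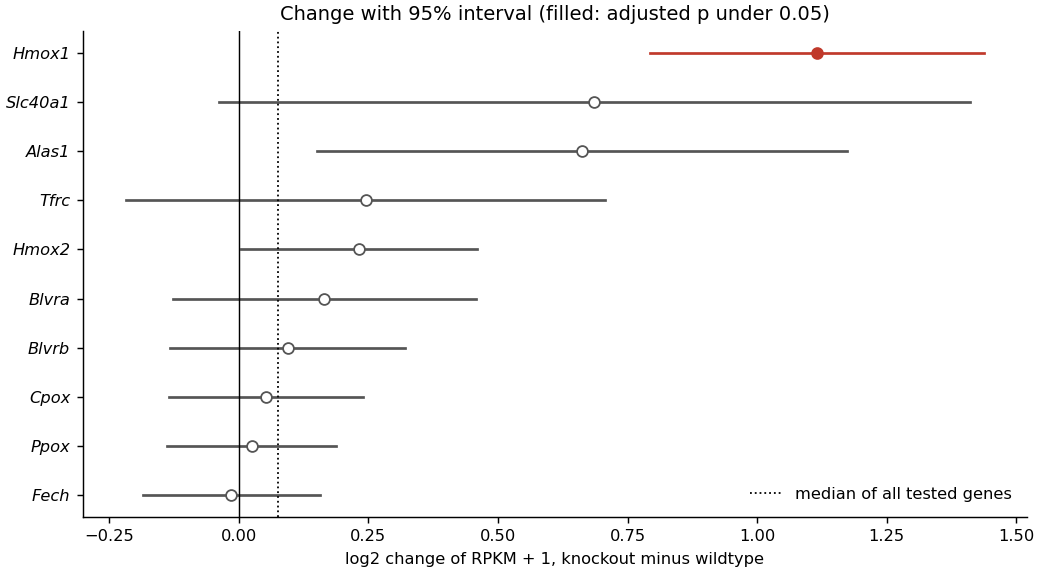
Log2 change of RPKM + 1, knockout minus wildtype, for each of the 10 genes, with the 95% interval from limma; a filled point marks an adjusted p under 0.05 and the dotted line the median of all tested genes at 0.08. Hmox1 is the filled point at 1.12, and the widest interval is that of Slc40a1, from -0.04 to 1.41.

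On the side of haem synthesis, Alas1 had the largest difference and also a wide spread. Alas1, the rate-limiting first enzyme outside red cells, was at 132, 139 and 91.8 RPKM in knockout libraries, against 73.4, 55.8 and 102 RPKM in wildtype libraries. The groups overlapped: wildtype replicate 3 lay above knockout replicate 3. Alas1 averaged 121 ± 25.4 RPKM in knockout tissue and 77.1 ± 23.4 RPKM in wildtype tissue, a ratio of means of 1.57. The log2 change was 0.66, with a standard error of 0.22, a 95% interval from 0.15 to 1.17 and an adjusted p of 0.118 in limma. Without wildtype replicate 3 the log2 change was 0.88 and passed, at an adjusted p of 0.0329 in limma, and the adjusted p ranged from 0.0329 to 0.317 over the 17 alternatives. Alas1 rests on many reads, from 3058 to 7429 per library, so counting error is small beside the spread between libraries.

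Cpox, the enzyme that makes protoporphyrinogen, was at 2.37, 2.53 and 2.59 RPKM in knockout libraries, against 2.21, 2.49 and 2.41 RPKM in wildtype libraries. Ppox, which oxidises that product, was at 9.22, 9.36 and 9.35 RPKM in knockout libraries, against 8.71, 9.67 and 9.05 RPKM in wildtype libraries. Fech, the ferrochelatase, was at 41.8, 41.4 and 36.6 RPKM in knockout libraries, against 39.7, 40.3 and 40.8 RPKM in wildtype libraries. All 3 overlapped between the groups and none of their changes passed. The log2 changes were 0.05 for Cpox, 0.02 for Ppox and -0.01 for Fech, with adjusted p of 0.747, 0.874 and 0.936 in limma. Each changes sign under some alternatives, which are given with the other settings. The 95% intervals reach at most 0.24 upward for Cpox, 0.19 for Ppox and 0.16 for Fech, and -0.19 downward for Fech. These are narrow beside the interval of Alas1, the enzyme at the other end of the chain.

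Over the whole chain, 9 enzymes from Alas1 and Alas2 to Fech were tested and none passed in limma, with 1 at an unadjusted p under 0.05, Alas1. The median log2 change of the 9 was 0.02, against 0.08 over all tested genes, and -0.06 with median-of-ratios scaling. Without wildtype replicate 3, 1 of the 9 passed. Urod, which acts in the middle of the chain, was at 45.4 ± 1.37 RPKM in knockout, against 42.1 ± 1.37 RPKM in wildtype tissue. Its groups did not overlap, but it did not pass, at an adjusted p of 0.375 in limma. Alas2, the form of the first enzyme that red cell precursors use, was at 5.91 ± 0.774 RPKM in knockout tissue and 6.87 ± 3.79 RPKM in wildtype tissue. Alas1 RNA was thus far above Alas2 RNA in both groups.

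Iron enters cells through Tfrc and leaves through Slc40a1, and both messenger RNAs carry iron-responsive elements, short hairpins that iron regulatory proteins bind when cellular iron is low. On Tfrc these hairpins lie in the 3′ UTR, where binding protects the RNA; on Slc40a1 the hairpin lies in the 5′ UTR, where binding blocks translation. The stretches below are shown because they are the features of these genes through which iron acts on them. They were found by a search for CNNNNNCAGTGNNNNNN in which the 5 bases on either side of the loop CAGTGN pair, G with T allowed, on the transcript strand. The sequences come from the GENCODE M21 transcripts of GRCm38 and are written 5′ to 3′ along the transcript, with the loop in capitals. The Tfrc sites lie on the plus strand and the Slc40a1 site on the minus strand.
Tfrc chr16:32631219-32631248: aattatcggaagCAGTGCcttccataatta
Tfrc chr16:32631598-32631627: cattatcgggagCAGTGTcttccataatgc
Tfrc chr16:32631663-32631692: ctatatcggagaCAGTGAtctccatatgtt
Tfrc chr16:32631710-32631739: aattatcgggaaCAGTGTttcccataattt
Slc40a1 chr1:45925464-45925493: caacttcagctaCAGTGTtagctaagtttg
Tfrc had 4 matches and Slc40a1 had 1, and no match to these letters was found in the transcript searched for each of the other 8 genes. Among the longest transcripts of 21901 protein-coding genes, 1.24% held at least 1 match. Only 4 genes (0.0183%) held more than 1, and Tfrc was among them with Npbwr1, Nudt12 and Zfp654. A match is a description of the letters, not evidence of binding in this tissue.

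Tfrc was at 19.4, 14.7 and 13.9 RPKM in knockout libraries, against 13.0, 18.1 and 9.76 RPKM in wildtype libraries. The groups overlapped, since wildtype replicate 2 lay above knockout replicates 2 and 3. Tfrc averaged 16.0 ± 2.99 RPKM in knockout tissue and 13.6 ± 4.22 RPKM in wildtype tissue. The log2 change was 0.24, with a 95% interval from -0.22 to 0.71, and did not pass, at an adjusted p of 0.513 in limma. It was 0.04 without wildtype replicate 3, 0.11 without knockout replicate 1 and 0.46 without wildtype replicate 2, and passed in none of these (adjusted p 0.907, 0.836 and 0.138 in limma).

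Slc40a1, or ferroportin, is the iron exporter and is abundant in macrophages that recycle red cells. It was at 15.5, 9.45 and 9.61 RPKM in knockout libraries, against 7.01, 3.63 and 10.8 RPKM in wildtype libraries. The groups overlapped because wildtype replicate 3 lay above knockout replicates 2 and 3. Slc40a1 averaged 11.5 ± 3.43 RPKM in knockout tissue and 7.16 ± 3.61 RPKM in wildtype tissue, a ratio of means of 1.61. Its log2 change was 0.69, with a 95% interval from -0.04 to 1.41, and did not pass, at an adjusted p of 0.233 in limma. A single wildtype library moved it strongly: it was 0.33 without wildtype replicate 2 (adjusted p 0.437 in limma) and 1.01 without wildtype replicate 3 (adjusted p 0.0633 in limma). The highest wildtype library was 2.99 times the lowest wildtype library, and the highest knockout library was 1.64 times the lowest knockout library. In the wildtype libraries Tfrc was highest and Slc40a1 lowest in replicate 2, and Tfrc was lowest and Slc40a1 highest in replicate 3. In the knockout libraries both were highest in replicate 1.

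The table lists several transcript rows for each gene, 71 rows for the 10 genes, and the values above use a single row for each. For Hmox1 all 5 rows were higher in knockout tissue with no overlap between the groups, with ratios of means from 2.26 to 2.68. For Hmox2 all 8 rows were higher in knockout tissue, with ratios from 1.17 to 1.30, and in 3 of the 8 the groups did not overlap, so the overlap given above for Hmox2 depends on the row chosen. In the row of Tfrc with the highest ratio, which has low values, the groups did not overlap either. For Alas1 all 9 rows were higher in knockout tissue, with ratios from 1.53 to 1.59 and overlap in every row. All 8 rows of Slc40a1 had ratios from 1.56 to 2.16, again with overlap in every row, and the 6 rows of Fech had ratios from 0.879 to 1.01. Rows of a gene share reads and are not replicates.

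**Figure D3:**
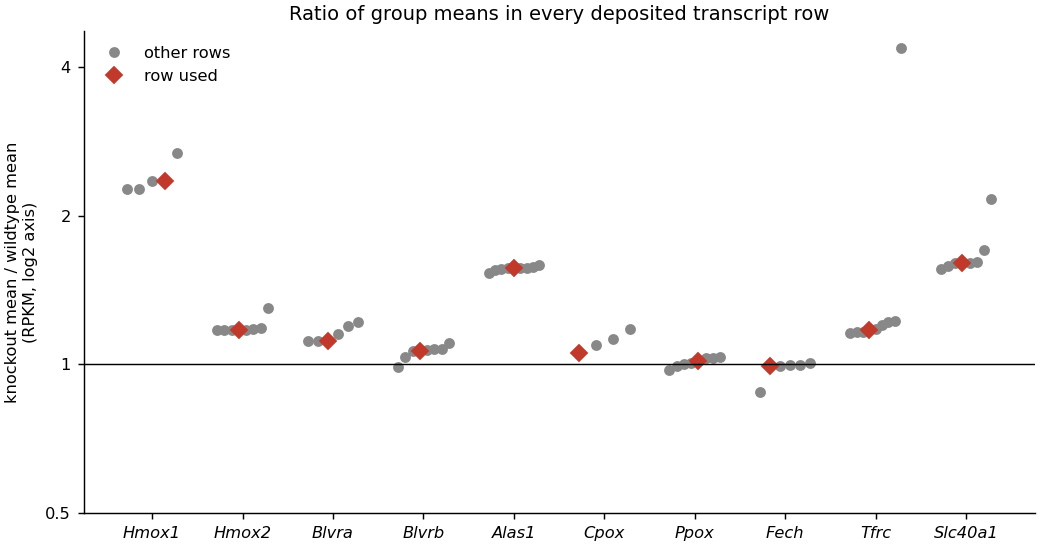
Ratio of the knockout mean to the wildtype mean of RPKM on a log2 axis for every deposited transcript row of the 10 genes, with the row used marked by a diamond. The rows of Hmox1 lie between 2.26 and 2.68 and those of Alas1 between 1.53 and 1.59; the single Tfrc row at 4.37 is one with low values, 0.376, 1.53 and 1.34 RPKM in knockout, against 0, 0.371 and 0.371 RPKM in wildtype libraries.

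Genes that act around the 10 were counted from lists of known function. Over all tested genes, 7.00% passed as higher and 0.745% as lower in knockout tissue, with a median log2 change of 0.08. In haem breakdown, Hmox1 was the 1 of 4 that rose, and the median log2 change was 0.20. Of 13 tested carriers and binders of haem and porphyrins none passed in limma, with 2 at an unadjusted p under 0.05 and a median of 0.00. The smallest p values in that list were practically tied and went in opposite directions. Abcg2, a porphyrin exporter, was at 5.13 ± 0.721 RPKM in knockout, against 4.04 ± 0.460 RPKM in wildtype tissue, with overlap between the groups (log2 change 0.28, adjusted p 0.175 in limma). Slc25a38, a mitochondrial glycine carrier that serves haem synthesis, was at 6.74 ± 0.393 RPKM in knockout, against 8.50 ± 1.48 RPKM in wildtype tissue, with every knockout library below every wildtype library (log2 change -0.28, adjusted p 0.175 in limma). Of 11 genes of iron uptake and reduction, 1 rose, with a median of 0.21. It was Slc25a28, which carries iron into mitochondria as mitoferrin-2, at 19.7 ± 2.28 RPKM in knockout, against 14.4 ± 1.41 RPKM in wildtype tissue. Its log2 change was 0.42, at an adjusted p of 0.0478 in limma. It passed in 1 of 17 alternatives and failed when any library was left out (adjusted p 0.0509 to 0.166).

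Iron storage and export held 8 tested genes, of which none passed in limma, with 1 at an unadjusted p under 0.05 and a median log2 change of 0.18. The smallest p was that of Heph, a ferroxidase that works with Slc40a1, at 1.46 ± 0.390 RPKM in knockout, against 0.823 ± 0.252 RPKM in wildtype tissue (adjusted p 0.117). The ferritin chains Fth1, at 1350 ± 145 RPKM in knockout, against 1447 ± 157 RPKM in wildtype tissue, and Ftl1, at 154.5 ± 21.0 RPKM in knockout, against 127 ± 26.3 RPKM in wildtype tissue, did not pass (log2 changes -0.10 and 0.29, adjusted p 0.651 and 0.295 in limma). They have near-identical copies, so reads may be split between copies and their values are uncertain. Iron sensing held 6 tested genes, of which 3 rose and none fell, against 7.00% higher and 0.745% lower over all tested genes. Their median was 0.22, against 0.08 over all tested genes. Hfe2, or hemojuvelin, which skeletal muscle makes, was at 8.91 ± 0.252 RPKM in knockout, against 0.730 ± 0.509 RPKM in wildtype tissue (log2 change 2.56, adjusted p 0.000408 in limma). Hfe, a partner of the transferrin receptors, was at 17.9 ± 1.18 RPKM in knockout, against 10.9 ± 1.31 RPKM in wildtype tissue (log2 change 0.67, adjusted p 0.00389 in limma). Both passed in all 17 alternatives. Fbxl5, an iron sensor that marks an iron regulatory protein for breakdown, had a log2 change of 0.35 and an adjusted p of 0.0238 in limma, and passed in 8 of 17 alternatives. With median-of-ratios scaling the list had 2 higher and 1 lower, the lower gene being Bmp6, an inducer of hepcidin (adjusted p 0.0402 there). Leaving out single libraries moved the adjusted p of Fbxl5 between 0.0374 and 0.104.

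Of 13 genes of iron-sulphur cluster assembly, the other main use of mitochondrial iron, 1 rose, with a median log2 change of 0.14. It was Fdxr, ferredoxin reductase, at 6.98 ± 0.212 RPKM in knockout, against 5.43 ± 0.234 RPKM in wildtype tissue (log2 change 0.31, adjusted p 0.0367 in limma). It passed in 4 of 17 alternatives, and leaving out any library gave an adjusted p between 0.0657 and 0.113. Of 12 regulators of Hmox1 and Alas1, 1 rose and 1 fell, with a median of 0.10. Clpx, a mitochondrial unfoldase that acts on the Alas enzymes, rose to 45.7 ± 1.44 RPKM in knockout tissue, against 33.9 ± 1.42 RPKM in wildtype tissue (log2 change 0.42, adjusted p 0.00766 in limma, 17 of 17 alternatives). Nr1d1, the haem-binding clock repressor, fell to 32.6 ± 5.32 RPKM in knockout tissue, against 45.6 ± 3.84 RPKM in wildtype tissue (log2 change -0.48, adjusted p 0.0473 in limma). It passed in 5 of 17 alternatives, with adjusted p from 0.0278 to 0.141 when single libraries were left out. Nfe2l2, the main activator of Hmox1, was at 35.4 ± 1.21 RPKM in knockout, against 39.3 ± 2.71 RPKM in wildtype tissue and did not pass (adjusted p 0.287). Bach1, its haem-sensing repressor, was at 4.50 ± 0.411 RPKM in knockout, against 4.21 ± 0.255 RPKM in wildtype tissue and did not pass either (adjusted p 0.647). The list labelled haem proteins held 14 genes, for haem proteins and for enzymes that act with them or modify haem. Of these 1 rose, the muscle oxygen store Mb, at 81.5 ± 17.6 RPKM in knockout, against 8.59 ± 4.32 RPKM in wildtype tissue. The log2 change of Mb was 3.21 (adjusted p 0.00116 in limma), and the median of the list was 0.02.

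**Figure D4:**
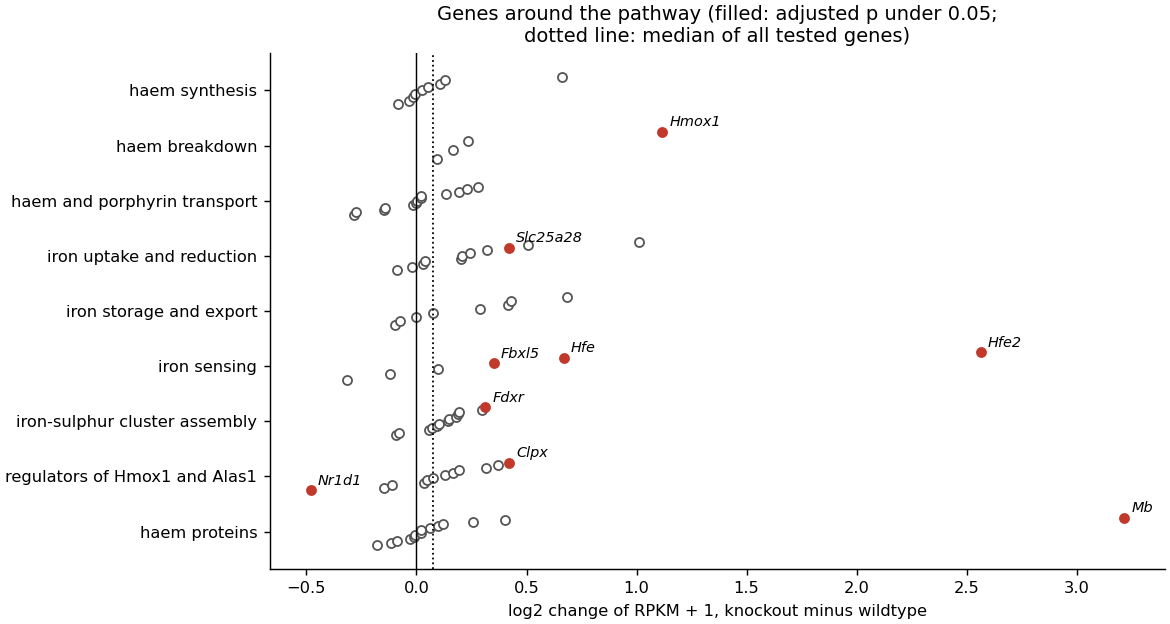
Log2 change of RPKM + 1, knockout minus wildtype, for every tested gene of 9 lists around the pathway, 1 row of points for each list; filled points have an adjusted p under 0.05 and the dotted line is the median of all tested genes at 0.08. Hmox1, Slc25a28, Fbxl5, Hfe, Hfe2, Fdxr, Clpx and Mb are the filled points to the right of 0, and Nr1d1 is the filled point to the left at -0.48.

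Markers of some other cell types also differed between the groups. All 13 skeletal muscle markers rose in knockout tissue. Summed they lay between 1754 and 1996 RPKM in knockout and between 60.6 and 288 RPKM in wildtype libraries. Mb is among these markers and Hfe2 is not. The part of muscle RNA in the changes of Mb and Hfe2 was not tested. In wildtype replicates 1, 2 and 3 the muscle sums were 255, 288 and 60.6 RPKM, and Hmox1 was at 7.22, 8.21 and 6.79 RPKM. Of 10 tested macrophage markers 1 rose, Mpeg1, at 3.44 ± 0.564 RPKM in knockout, against 1.41 ± 0.353 RPKM in wildtype tissue (log2 change 0.89, adjusted p 0.00575 in limma). At an unadjusted p under 0.05 there were 8 of the 10, against 23.6% of all tested genes, and the median log2 change was 0.44. The sum of 16 macrophage markers was 77.3, 106 and 103 RPKM in knockout, against 47.2, 75.8 and 60.6 RPKM in wildtype libraries. Slc40a1 was highest in the knockout library with the lowest macrophage sum of its group. It was lowest in the wildtype library with the highest macrophage sum of its group. Marco, Vsig4 and Spic were at or near 0 in both groups, with at most 0.175 RPKM in any library. Macrophages use both Hmox1 and Slc40a1, and the part of muscle and macrophage RNA in the values of Hmox1, Slc40a1 and Hfe was not tested.

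**Figure D5:**
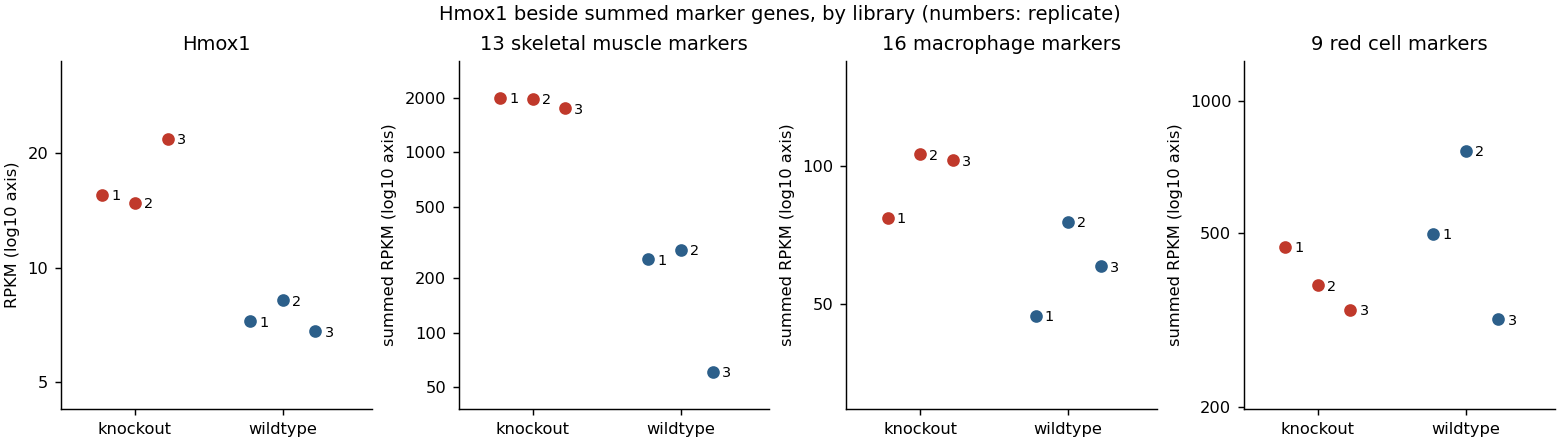
Hmox1 in RPKM and the summed RPKM of skeletal muscle, macrophage and red cell markers in every library, on log10 axes, with knockout libraries on the left, wildtype libraries on the right and the replicate number beside each point. Muscle sums are 1754 to 1996 RPKM in knockout, against 60.6 to 288 RPKM in wildtype libraries, macrophage sums do not overlap between the groups, and red cell sums do.

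Red cell markers did not separate the groups: their sum was 334 to 465 RPKM in knockout, against 317 to 769 RPKM in wildtype libraries. None of the 5 tested passed in limma and none had an unadjusted p under 0.05, with a median log2 change of -0.35. Haemoglobin genes have near-identical copies, which makes their values uncertain. None of 7 endothelial markers passed in limma or had an unadjusted p under 0.05 (median -0.01), and the 4 hepatocyte markers were below the filter. Of 11 markers of brown adipocytes and of fat cells in general, 1 rose and 2 fell, with a median of 0.06. These were Elovl3, at 88.2 ± 22.4 RPKM in knockout, against 46.4 ± 11.8 RPKM in wildtype tissue, and, besides Ucp1, Prdm16, at 3.24 ± 0.261 RPKM in knockout, against 4.98 ± 0.822 RPKM in wildtype tissue. Elovl3 passed in 7 of 17 alternatives and Prdm16 in 9 of 16, with adjusted p up to 0.128 and 0.124 when single libraries were left out.

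The genes whose profile over the 6 libraries was nearest to that of Hmox1 were sought among 6944 others whose mean reached 5 RPKM in knockout or wildtype tissue. Likeness was the root mean square difference of log2(RPKM + 1) values, each centred on its own mean, so that a low value means alike. The nearest were Trib3, a stress-induced pseudokinase, at 0.121, Iigp1, an interferon-induced GTPase, at 0.145, and Slc43a2, an amino acid carrier, at 0.155. Zfp385a, a zinc finger protein, at 0.160, and Psat1, an enzyme of serine synthesis, at 0.179, followed. Trib3 was at 5.94, 7.04 and 8.41 RPKM in knockout libraries, against 2.75, 2.76 and 2.10 RPKM in wildtype libraries. Psat1 was at 3.74, 4.73 and 7.81 RPKM in knockout libraries, against 1.55, 1.96 and 1.10 RPKM in wildtype libraries. Like Hmox1, Trib3, Psat1 and Zfp385a were highest in knockout replicate 3 and lowest in wildtype replicate 3. Slc43a2 was highest in knockout replicate 1, and Iigp1 was lowest in wildtype replicate 1. All of these genes were picked for likeness to Hmox1, so their difference between the groups is a description with no test.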

How the data were processed

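Per the labels' protocols, TruSeq RNA Sample Prep kit v2 libraries were made from total RNA, 3 from UCP1(-/-) and 3 from wildtype brown fat. CASAVA and bcl2fastq are named, per the submitters' processing notes. Which aligner, genome build, annotation and strand setting were used is not given in the sources used here. Values the authors deposited for 168326 transcript rows are RPKM and not counts; no header names this unit, which was read from the values. For Ensembl rows of known length, 96.0% to 96.3% of low values were whole multiples of a single read within 0.1 reads, and the steps gave the depth. Rows without a gene identifier (13.8%) were left out. Of 29072 genes, 24525 matched the RefSeq table of GRCm38.p6, used for names, chromosomes and neighbours.

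A single row was kept per gene: RefSeq rows first, then Ensembl, with the highest mean. On log2(RPKM + 1), which understates changes of low genes, limma 3.58.1 in R 4.3.3 was fitted with an intensity trend and genotype as the only factor, on genes whose mean reached 1 RPKM in either genotype. P-values are two-sided, Benjamini-Hochberg adjusted over 11541 genes, with a threshold of 0.05. Ratios of genes within a library were tested by exact permutation. The fit was tested on simulated data.

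The 10 genes, the 15 lists and the tests were chosen with earlier results of these data known. All 10 genes are named. From each list are named the genes that passed (at most 5, by smallest adjusted p), or the smallest p where none passed, and the defining markers; for likeness to Hmox1, the nearest 5 genes. Other genes, such as Urod, Alas2, Slc25a38, Nfe2l2, Bach1 and the ferritins, were named for their role after their values were seen. The 17 alternatives changed scaling, filter, pseudocount, row choice, model, threshold and replicate block, or left out each library. Iron-responsive elements were searched in GENCODE M21 transcripts of GRCm38.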

Additional observations from a re-analysis of the deposited data

How the results depend on the processing

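Of the 10 genes, Hmox1 passed in limma under all 17 alternatives and Alas1 without wildtype replicate 3, so that leaving out single libraries gave 1 to 2 genes. None of the 10 passed as lower under any of the 17. The count of 894 genes over the whole table became 452 with a filter of 5 RPKM, 370 at a threshold of 0.01 and 457 to 850 without single libraries. Median-of-ratios scaling moved the median log2 change of all tested genes to -0.01, and 645 genes passed. With it Blvrb stood at -0.00131, Cpox at -0.0174 and Ppox at -0.0645, and upper-quartile scaling put Ppox at -0.0306. Leaving out single libraries took Blvrb to between -0.00423 and 0.149, Ppox to between -0.00669 and 0.0619 and Fech to between -0.0475 and 0.0453; the cause was not tested. The ratio of Hmox1 to Hmox2 kept its direction, with log2 differences from 0.77 to 1.15. With the replicate number as a block 778 genes passed, Hmox1 among them (adjusted p 0.00547). Deviations from group means correlated at 0.0892, 0.0383 and -0.0183 for same-numbered libraries. For differently numbered libraries they correlated at -0.136 to 0.0696. With deviations taken within groups of 3, this cannot decide whether the numbers pair the libraries. Cpox is below the filter of 5 RPKM. The knockout and wildtype libraries of Alas1 and Slc40a1 overlapped, and neither gene passed in limma with all libraries kept. Cpox, at 111 to 144 reads per library, has the largest counting error of the 10.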
